A study of Mus musculus with 6 samples.

Results

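The transcripts described here encode 10 receptors through which blood stem cells home to the bone marrow and hold on to its niche: Cxcr4, Itga4, Itga6, Itgb1, Itgal, Itgb2, Cd44, Selplg, Esam and Jam2. They were taken by symbol from a deposited expression table of 14986 genes, and 10 of the 10 symbols were found. The table covers long-term haematopoietic stem cells (LT-HSCs), the self-renewing cells from which all blood lineages arise, of the mouse, in 3 wild type and 3 Zcchc8 KO libraries, each from the polyadenylated RNA of 1500 sorted cells. ZCCHC8 is the central subunit of the NEXT complex, an adaptor that feeds unstable nuclear RNAs to the exosome for decay, and the comparison asks how its depletion alters gene expression. The sources used here do not give the strain, age or sex, the design of the knockout allele or the antibodies of the sort. They also do not say whether replicates came from separate animals, so p-values measure only the spread between libraries, which may be technical.

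A stem cell that enters marrow from the blood first rolls on vessel walls through selectins, which bind sugar-modified ligands such as PSGL-1 (Selplg) and CD44. Chemokine CXCL12 from stromal cells then signals through CXCR4 and switches integrins from a bent to an extended form, so that the cell arrests on VCAM1 and ICAM proteins and crosses the vessel wall. Integrins are obligate pairs of an alpha and a beta chain: alpha4 and alpha6 pair with beta1 (VLA-4, a VCAM1 and fibronectin receptor, and VLA-6, a laminin receptor), and alphaL pairs with beta2 (LFA-1, an ICAM receptor). ESAM and JAM-B (Jam2) are immunoglobulin proteins of endothelial junctions, and ESAM also marks stem cells.

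Values are FPKM, fragment counts scaled by gene length and by library size, so levels can be compared roughly between genes and between libraries. FPKM values depend on the gene length used and do not sum to a fixed total per library. The reads behind them came to 18059320 to 18909214 in the wild type libraries and 18963364 to 25709644 in the KO libraries, with KO library 1 the deepest. Zcchc8 itself read 8.93, 5.24 and 5.16 FPKM in wild type libraries 1 to 3 and 10.4, 5.54 and 5.92 FPKM in KO libraries 1 to 3. It was thus not lower in the libraries labelled KO, and 1 value per gene cannot show a deletion of single exons, so every direction below is that of libraries so labelled. Each of the 14 LT-HSC markers examined was expressed highly enough to be tested and 0 of 14 passed, with summed levels of 434 to 494 FPKM over the wild type and 336 to 391 FPKM over the KO libraries. In bulk RNA, fewer cells of a type and less RNA per cell cannot be told apart.

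The 10 receptor genes covered a wide range of levels. Esam had the highest mean over the 6 libraries, 69.1 FPKM, above 93.3% of genes in the table, followed by Selplg with 64.9, Itgb1 with 48.7, Cd44 with 35.8 and Itgb2 with 16.3 FPKM. Itga6 (6.11 FPKM), Cxcr4 (3.0) and Itga4 (2.77) lay lower, and Jam2 (0.915) and Itgal (0.821) were below the mean of 1 FPKM that a gene needed to be tested. Of neighbours in this order, the ranges over the 6 libraries were separate only between Selplg and Itgb1 and between Itga4 and Jam2. The other 7 neighbouring pairs had overlapping ranges. Within every library, however, Cd44 was above Itgb2, Itgb2 above Itga6 and Itga6 above Cxcr4. The order of the remaining overlapping pairs changed between libraries. Esam, the ligands of rolling and the common beta1 chain were thus the abundant transcripts, and Cxcr4, Jam2 and the alpha chains the scarce ones.

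The test of KO against wild type was limma on log2(FPKM + 1) with Benjamini-Hochberg adjustment over 11837 genes. Of the 8 tested members 0 passed an adjusted p of 0.05, against 27 genes or 0.228% of all tested genes. With limma-voom on reads recovered from the FPKM 0 of the 8 passed too, against 8 or 0.069% of 11588 tested genes. A p above the threshold does not show that levels were alike, so each change is given with its standard error. At an unadjusted p of 0.05 there were 2 members by either tool, and by limma 9.2% of all tested genes were past that limit. These were Itgb2, higher in KO like 4.87% of tested genes, and Esam, lower in KO like 4.33%. The same 2 members were those whose wild type and KO libraries did not overlap, which held for 15.2% of tested genes, 8.24% with KO higher and 6.99% with KO lower. All 8 tested members had a mean above 1 FPKM in each group, so none entered the test through a single group. Their median log2 change was 0.17 and that of all tested genes 0.00, and without KO library 2 the members' median was 0.016.

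**Figure D1:**
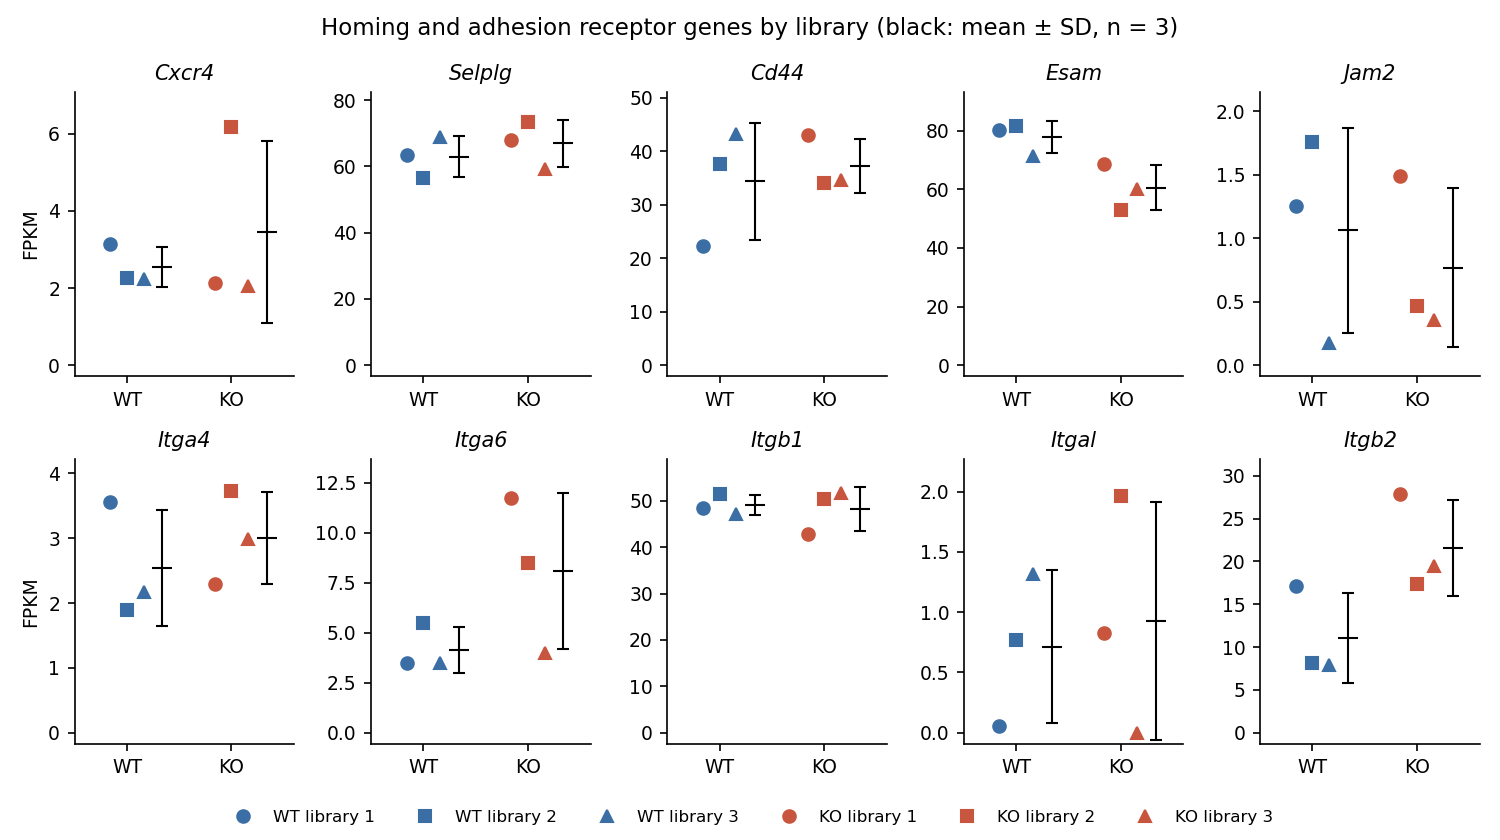
Level in FPKM (linear axes) of the 10 receptor genes in each wild type (WT, blue) and Zcchc8 KO (red) library, with symbols for library number and the mean ± SD of each group in black. Itgb2 is higher and Esam lower in every KO library than in every wild type library, and the groups of the other 8 genes overlap.

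Cxcr4 (ENSMUSG00000045382.6, chromosome 1, 128588199 to 128592293, GRCm38, minus strand) encodes the CXCL12 receptor that draws stem cells into marrow and keeps them there. Cxcr4 read 3.15, 2.27 and 2.22 FPKM in wild type libraries 1 to 3 and 2.13, 6.18 and 2.05 FPKM in KO libraries 1 to 3. KO library 2 stood apart from the other 5 libraries, and the groups overlapped. The log2 change was 0.22 ± 0.40 (SE, limma adjusted p = 0.913), and without KO library 2 it was -0.19 ± 0.37, so its sign rested on that library. Between 75 and 212 reads lay behind each Cxcr4 value, with a counting error of 11.5% at the lowest.

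Around CXCR4, a list of 42 chemokine and egress receptors, ligands and signalling genes had 30 tested members, of which 0 rose and 0 fell. At an unadjusted p of 0.05, 1 was higher and 4 were lower, against 4.87% and 4.33% of all tested genes. The median log2 change was 0.03. Ccrl2, an atypical receptor that binds chemerin without signalling itself, measured 5.07 ± 0.855 FPKM in the wild type and 13.5 ± 3.13 in the KO group (SD, n = 3 libraries, limma adjusted p = 0.152). Dpp4, the surface peptidase CD26 that clips and inactivates CXCL12, measured 5.12 ± 1.01 and 1.69 ± 1.0 FPKM (limma adjusted p = 0.32). Robo4, a guidance receptor of endothelium and stem cells that takes part in their lodging in marrow, measured 5.32 ± 0.811 and 2.21 ± 0.175 FPKM (limma adjusted p = 0.326). In these 3 genes, named for having the smallest p of the list, the wild type and KO libraries did not overlap. Ccrl2 was higher in KO, and Dpp4 and Robo4 were lower. The groups did not overlap in 6 of the 30 tested members, against 15.2% of all tested genes. The ligand Cxcl12, which marrow stroma makes, was low, at 0.0334 to 0.311 FPKM over the wild type and 0.387 to 2.46 FPKM over the KO libraries. Its groups did not overlap, but its mean was under the filter and it was not tested. Over this and the 5 other lists of related genes described below, 0 of 125 tested genes passed by limma or by limma-voom, and 20 were past an unadjusted p of 0.05 by limma-voom, where 9.2% of all tested genes were.

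Selplg (ENSMUSG00000048163.13, chromosome 5, 113818536 to 113832644, minus strand) encodes PSGL-1, the mucin that selectins bind. Selplg read 63.5, 56.6 and 68.8 FPKM in wild type libraries 1 to 3 and 67.9, 73.5 and 59.3 FPKM in KO libraries 1 to 3. The groups overlapped throughout, and the log2 change was 0.09 ± 0.14 (SE, limma adjusted p = 0.898). Cd44 (ENSMUSG00000005087.17, chromosome 2, 102811141 to 102901665, minus strand) encodes the hyaluronan receptor, which also carries E-selectin-binding sugars. Cd44 read 22.2, 37.7 and 43.2 FPKM in wild type libraries 1 to 3 and 43.0, 34.1 and 34.5 FPKM in KO libraries 1 to 3. Wild type library 1 was the lowest of the 6. The log2 change was 0.16 ± 0.25 (SE, limma adjusted p = 0.894), and it was -0.12 ± 0.18 without that library. The 9 annotated transcripts of Cd44, which differ in variable exons, are summed in 1 value, so isoform use was not measured.

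The selectin list joined the selectins and their ligands to the enzymes that build or sulfate the ligands' sugars and tyrosines. None of its 24 tested members passed, and its median log2 change was 0.12. At an unadjusted p of 0.05, 3 were higher and 1 lower, against 4.87% and 4.33% of all tested genes. Selp, P-selectin of platelets and endothelium, was at 6.19 ± 1.06 FPKM in the wild type and 11.2 ± 0.550 in the KO group (SD, n = 3 libraries, limma adjusted p = 0.34). B4galt1, a galactosyltransferase of selectin ligand sugars, was at 21.9 ± 2.06 and 34.1 ± 6.38 FPKM (limma adjusted p = 0.362). Tpst2, which adds the tyrosine sulfate that P-selectin needs on PSGL-1, was at 66.0 ± 7.82 and 51.2 ± 1.15 FPKM (limma adjusted p = 0.482). These 3 genes were named for having the smallest p of the list, so their lack of overlap partly follows from that choice. The groups did not overlap in 6 of the 24 tested members, against 15.2% of all tested genes. Selp and B4galt1 were higher and Tpst2 lower in KO.

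Among genes related to CD44, 0 of 17 tested members passed, with a median log2 change of -0.05. At an unadjusted p of 0.05, 2 were higher and 1 lower, against 4.87% and 4.33% of all tested genes. Spp1, the secreted CD44 and integrin ligand osteopontin, read 2.42, 0 and 5.26 FPKM in wild type libraries 1 to 3 and 12.6, 5.95 and 8.01 FPKM in KO libraries 1 to 3 (limma adjusted p = 0.409). Cd74, the invariant chain and a partner of CD44 in the receptor for the cytokine MIF, measured 32.1 ± 5.09 and 48.3 ± 9.57 FPKM (SD, n = 3 libraries, limma adjusted p = 0.401). The metalloprotease gene Mmp9 measured 5.77 ± 3.0 and 2.15 ± 0.929 FPKM (limma adjusted p = 0.463). Cd74 is also in the list of monocyte, macrophage and dendritic cell markers and Mmp9 in that of granulocytes.

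Itgb1 (ENSMUSG00000025809.15, chromosome 8, 128685654 to 128733200, plus strand), the beta chain shared by VLA-4, VLA-5 and VLA-6, had the smallest coefficient of variation of the receptors in each group, 4.44% in wild type and 9.84% in KO. Itgb1 read 48.5, 51.5 and 47.2 FPKM in wild type libraries 1 to 3 and 42.9, 50.4 and 51.7 FPKM in KO libraries 1 to 3. KO library 1 was the lowest, and the other 5 libraries lay within 47.2 to 51.7 FPKM. The log2 change was -0.03 ± 0.14 (SE, limma adjusted p = 0.977), and its sign turned without wild type library 2 (0.0076) or KO library 1 (0.055). At least 3577 reads lay behind each value.

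Itga4 (ENSMUSG00000027009.18, chromosome 2, 79255426 to 79333123, plus strand), the VLA-4 alpha chain, read 3.55, 1.90 and 2.17 FPKM in wild type libraries 1 to 3 and 2.30, 3.73 and 2.99 FPKM in KO libraries 1 to 3. Wild type library 1 and KO library 2 were the highest, and the groups overlapped, with a log2 change of 0.19 ± 0.33 (SE, limma adjusted p = 0.906). Of its 13978 exon bases, 1124 (8.04%) also lie in exons of Cerkl, a gene on the opposite strand, so that reads there cannot be told apart if strand was not used. Cerkl's own level was highest in wild type library 2, at 3.08 FPKM, above the 1.90 FPKM of Itga4 there. In the other libraries Cerkl lay at 0.648 to 1.02 FPKM, below Itga4.

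Itga6 (ENSMUSG00000027111.15, chromosome 2, 71745616 to 71858416, plus strand), the laminin receptor chain, read 3.48, 5.47 and 3.48 FPKM in wild type libraries 1 to 3 and 11.7, 8.50 and 4.01 FPKM in KO libraries 1 to 3. KO libraries 1 and 2 were above every wild type library, but KO library 3 lay inside the wild type range. The mean was 1.95-fold higher in KO, with a log2 change of 0.74 ± 0.38 (SE, limma adjusted p = 0.594). Without KO library 1, the deepest, the log2 change was 0.45 ± 0.40, and without KO library 3 it was 1.12 ± 0.33 (limma adjusted p = 0.365, in a range of 0.365 to 0.805 over all alternatives).

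Itgb2 (ENSMUSG00000000290.13, chromosome 10, 77530252 to 77565708, plus strand), the beta chain of LFA-1 and of the other leukocyte integrins, had the smallest p of the members. Itgb2 read 17.2, 8.15 and 7.87 FPKM in wild type libraries 1 to 3 and 27.9, 17.3 and 19.4 FPKM in KO libraries 1 to 3. All 3 KO libraries were above all 3 wild type libraries, but the gap was narrow, from 17.16 FPKM in wild type library 1 to 17.33 FPKM in KO library 2. The mean was 1.95-fold higher in KO, 11.1 ± 5.29 and 21.5 ± 5.59 FPKM (SD, n = 3 libraries), a log2 change of 0.96 ± 0.32 (SE) that did not pass (limma adjusted p = 0.387). Leaving out 1 library at a time gave log2 changes of 0.77 to 1.30, the highest without wild type library 1, and none passed.

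Markers of mature cells, most of which carry beta2 integrins, also differed between the groups, not all in 1 direction. The 12 granulocyte markers summed to 3028 to 3210 FPKM over the wild type and 3874 to 4306 FPKM over the KO libraries, and 1 of the 12 tested, S100a9, rose. At an unadjusted p of 0.05, 5 of the 12 were higher in KO and 4 lower, against 4.87% and 4.33% of all tested genes. The lower ones were Mpo (67.5 FPKM in the wild type and 49.9 in the KO group), Prtn3 (255 and 199), Retnlg and Mmp9. The list of dendritic cells, monocytes and macrophages summed to 132 to 159 FPKM and 252 to 299 FPKM over 8 of its 12 genes, with 2 of 7 tested genes rising, while its Csf1r, Ccr2, Adgre1 and Siglech were not analysed here. The eosinophil list summed to 1.05 to 3.25 FPKM and 170 to 211 FPKM over 5 of its 9 genes. Its Ear1, Ear2, Ccr3 and Il5ra were not analysed here. Of the 5 tested 4 rose: Prg2, Prg3, Epx and Ear6. Their wild type means were at most 0.21 FPKM, so these 4 passed the expression filter only through the KO libraries. The T and NK cell list summed to 191 to 233 FPKM and 310 to 324 FPKM over 5 of its 10 genes, with 0 of 4 tested genes rising, while its Cd3e, Cd3g, Trac, Ncr1 and Cd8a were not analysed here. Nkg7, a cytotoxic granule gene, carried that separation. Without Nkg7 the list summed to 5.20 to 17.4 and 12.6 to 21.3 FPKM, with overlapping groups. Cd3d was also higher in every KO library (limma adjusted p = 0.208). It read 0 to 1.34 FPKM in wild type and 2.68 to 5.37 FPKM in KO, and passed the filter only through KO. The groups of Lck and Klrb1c overlapped. The B cell list summed to 809 to 926 FPKM in the wild type group and 84.3 to 118 FPKM in the KO group over 9 of its 10 genes, with 1 of 6 tested genes falling, the kappa chain gene Igkc, while its Ms4a1 was not analysed here. Igkc carried that sum, at 746 to 866 FPKM in wild type and 0 to 1.35 FPKM in KO. Igkc passed the expression filter only through the wild type libraries. Without Igkc the B cell list went the other way, 60.6 to 70.1 FPKM in wild type and 84.3 to 116 FPKM in KO. Cd79a, Vpreb1, Vpreb3 and Ighm were each higher in every KO library at an unadjusted p of 0.05. Of all tested genes 4.87% were higher in KO at that p. The mast cell and basophil list summed to 22.3 to 37.4 FPKM and 67.4 to 112 FPKM over 5 of its 8 genes, and 1 of 5 tested, Gzmb, rose, while its Ms4a2, Prss34 and Tpsb2 were not analysed here. Without Gzmb the list summed to 13.6 to 28.4 FPKM in wild type and 34.1 to 39.0 FPKM in KO. Of the rest, Fcer1a (9.63 FPKM in the wild type and 27.6 in the KO group) was higher in every KO library. Cpa3 (5.96 and 4.17) and Mcpt8 (3.39 and 2.19) had lower means in KO with overlapping groups. The erythroid list summed to 115 to 149 FPKM and 436 to 465 FPKM over 8 of its 10 genes, and 4 of 7 tested rose, while its Alas2 and Slc4a1 were not analysed here. No gene used in these sums was at 0 in all 6 libraries. The part of such cells in the Itgb2 values was not tested.

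The alpha partners of beta2 did not share its level. Itgal (ENSMUSG00000030830.18, chromosome 7, 127296260 to 127335138, plus strand), the LFA-1 alpha chain, read 0.0590, 0.766 and 1.32 FPKM in wild type libraries 1 to 3 and 0.823, 1.96 and 0 FPKM in KO libraries 1 to 3. This amounts to 7, 92 and 164 reads in wild type and 139, 244 and 0 reads in KO, where the count of 0 allows up to 3 reads or 0.0219 FPKM. Values thus swung within each group by far more than counting error, and by an exact permutation test (two-sided) p was 0.9, where 3 against 3 libraries cannot go below 0.1. In a fit with no expression filter the log2 change of Itgal was 0.10 ± 0.44 (SE, limma adjusted p = 0.974). Itgam, the alpha chain of Mac-1 on myeloid cells, was also low, at 0.121 to 0.925 FPKM over the wild type and 0.557 to 0.717 FPKM over the KO libraries.

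Within libraries, the balance of alpha to beta chain was compared for 3 pairs, and the wild type and KO libraries overlapped in each. The mean log2 ratio of Itga4 to Itgb1, each as FPKM + 1, was -3.85 ± 0.37 over the wild type and -3.63 ± 0.17 over the KO libraries (SD, n = 3 libraries, exact two-sided permutation p = 0.4). For Itga6 to Itgb1 it was -3.31 ± 0.25 and -2.54 ± 0.81 (exact permutation p = 0.2), and for Itgal to Itgb2 -2.80 ± 1.15 and -3.66 ± 0.91 (exact permutation p = 0.3). Adjusted over the 3 ratios, each exact permutation p was 0.4. With 3 against 3 libraries the exact permutation p cannot go below 0.1. No ratio could thus have passed the threshold used here, and the test does not decide whether the balance differed. In each library every one of these alpha chains was below its beta chain.

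The table held 21 integrin subunit genes, 14 alpha and 7 beta, of which 9 had a mean of at least 1 FPKM. Besides the receptors above these were Itga2b, the alphaIIb chain (CD41) that platelets and stem cells carry, Itga5, the VLA-5 fibronectin receptor chain, and the beta chains Itgb3, Itgb4 and Itgb7. Itga2b alone made up 57.3% to 66.0% of the summed alpha FPKM of each library, and Itga6 6.82% to 18.8%. Itgb1 made up 60.1% to 69.1% of the summed beta FPKM in wild type and 40.9% to 58.8% in KO. The summed beta FPKM was 68.3 to 80.8 in wild type and 87.9 to 105 in KO, and the summed alpha FPKM 44.5 to 48.8 and 58.8 to 62.6. Neither sum overlapped between groups, and both were examined after the values of single subunits had been seen.

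**Figure D2:**
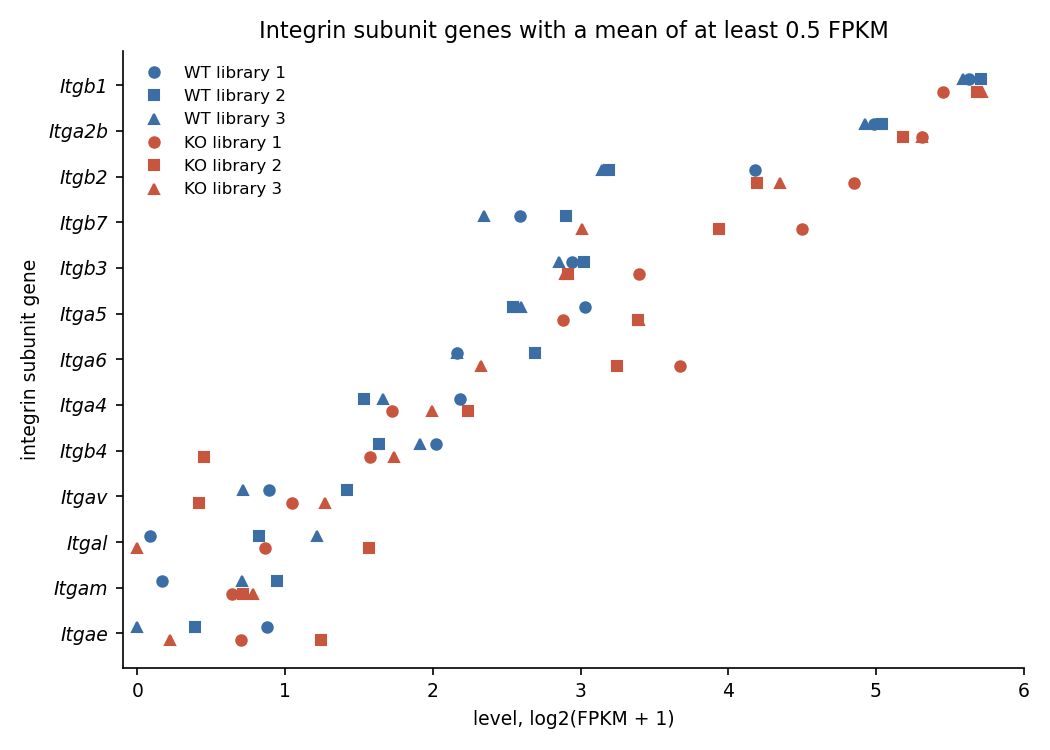
Level of integrin subunit genes averaging 0.5 FPKM or more, as log2(FPKM + 1), in each wild type (WT, blue) and Zcchc8 KO (red) library. Itgb1 holds one narrow band near the top, Itgb2 and Itgb7 lie to the right in KO, and Itgal scatters from 0 to 1.96 FPKM.

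Among the other integrin subunits 0 of 5 tested genes passed, with a median log2 change of 0.28. At an unadjusted p of 0.05, 1 was higher, against 4.87% of all tested genes. That gene was Itgb7, the second beta partner of alpha4 (alpha4beta7 binds MAdCAM1 of gut vessels), which read 5.02, 6.47 and 4.09 FPKM in wild type libraries 1 to 3 and 21.6, 14.3 and 7.07 FPKM in KO libraries 1 to 3. Its groups did not overlap, and its log2 change was 1.20 ± 0.38 (SE, limma adjusted p = 0.357). Itga2b measured 30.7 ± 1.31 and 37.5 ± 1.99 FPKM (SD, n = 3 libraries, limma adjusted p = 0.594), again without overlap, and Itga5 5.68 ± 1.28 and 8.46 ± 1.81 FPKM (limma adjusted p = 0.624). Mast cells and their precursors also carry beta7. The mast cell and basophil markers given above went in both directions, and the part of such cells in the Itgb7 values was not tested. KO library 1 held the highest value of Itgb2, Itgb7, Itga6 and Itgb3.

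Genes that activate integrins from inside the cell showed 0 passing members of 32 tested and a median log2 change of 0.02. At an unadjusted p of 0.05, 1 was higher, against 4.87% of all tested genes. Rap1b, the small GTPase that recruits talin to beta chains, read 34.1, 50.4 and 53.4 FPKM in wild type libraries 1 to 3 and 66.4, 67.7 and 67.2 FPKM in KO libraries 1 to 3 (limma adjusted p = 0.367). The KO libraries lay close together above all wild type libraries. Fermt3, kindlin-3, the co-activator of integrins in blood cells, measured 95.5 ± 5.86 and 112 ± 4.96 FPKM (SD, n = 3 libraries, limma adjusted p = 0.556), and Rap1a 23.7 ± 4.40 and 33.8 ± 9.13 FPKM (limma adjusted p = 0.588).

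Esam (ENSMUSG00000001946.14, chromosome 9, 37528078 to 37538319, plus strand) had the highest mean over the 6 libraries and was the only receptor lower in every KO library. Esam read 80.1, 81.6 and 71.5 FPKM in wild type libraries 1 to 3 and 68.6, 53.0 and 60.0 FPKM in KO libraries 1 to 3. The highest KO library lay just under the lowest wild type library. The mean was 77.7 ± 5.46 FPKM in the wild type and 60.6 ± 7.81 in the KO group (SD, n = 3 libraries), a log2 change of -0.36 ± 0.14 (SE) that did not pass (limma adjusted p = 0.482). Without 1 library at a time the log2 change lay between -0.45 and -0.27. At least 2884 reads lay behind each Esam value, a counting error of at most 1.86%.

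Cells besides LT-HSCs that carry ESAM are endothelial cells and platelets with their precursors. The endothelial and stromal list summed to 20.6 to 33.5 FPKM in wild type and 18.0 to 24.6 in KO, counting 10 of its 12 genes, with 0 of 4 tested genes passing, Kdr at 0 in wild type library 1 and KO library 1, and its Cdh5 and Col1a1 not analysed here. The 10 megakaryocyte markers summed to 289 to 359 FPKM over the wild type and 437 to 507 FPKM over the KO libraries, with 0 of 9 tested genes passing. Pf4, a platelet chemokine, was the largest part of that sum. Without Pf4 the list summed to 161 to 182 FPKM in wild type and 180 to 217 FPKM in KO, with a slight overlap. Of the 9 tested markers 5 were higher in every KO library, namely Pf4, Itga2b, Gp5, Selp and Treml1, and 0 were lower in every KO library. Over all tested genes these shares were 8.24% and 6.99%. Other markers of the list, among them Gp9, Ppbp and Gp1bb, had lower means in KO with overlapping groups. The LT-HSC markers summed to less in every KO library than in any wild type library, as given above, which was the direction of Esam. The part of a shift in cell makeup in the Esam values was not tested.

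Jam2 (ENSMUSG00000053062.16, chromosome 16, 84774123 to 84825928, plus strand) encodes JAM-B, which binds JAM-C on a facing cell. Jam2 read 1.25, 1.75 and 0.175 FPKM in wild type libraries 1 to 3 and 1.49, 0.462 and 0.357 FPKM in KO libraries 1 to 3, or 20 to 194 reads and 45 to 231 reads. Wild type library 3 was the lowest and the groups overlapped. By the exact two-sided permutation test p was 0.9, and in a fit with no expression filter the log2 change of Jam2 was -0.19 ± 0.38 (SE, limma adjusted p = 0.929). Its partner gene Jam3 was as scattered and read 0.277, 0 and 4.61 FPKM in wild type libraries 1 to 3 and 1.54, 5.82 and 3.50 FPKM in KO libraries 1 to 3 (limma adjusted p = 0.638).

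Among related immunoglobulin, cadherin and junction genes 0 of 17 tested members passed, and the median log2 change was -0.03. At an unadjusted p of 0.05, 1 was higher and 4 were lower, against 4.87% and 4.33% of all tested genes. The higher gene was Icam2, a ligand of LFA-1 on leukocytes, platelets and endothelium, and of all the homing and adhesion genes examined here it had the smallest adjusted p. Icam2 read 30.7, 25.0 and 35.7 FPKM in wild type libraries 1 to 3 and 55.9, 60.5 and 67.3 FPKM in KO libraries 1 to 3, with a wide gap between the groups. Its mean was 2.01-fold higher in KO, a log2 change of 0.99 ± 0.17 (SE), and its adjusted p of 0.079 by limma missed the threshold, as it did under 16 of 16 alternatives (0.0522 to 0.314). The other LFA-1 ligand gene, Icam1, measured 12.5 ± 3.96 and 10.8 ± 5.41 FPKM (SD, n = 3 libraries, limma adjusted p = 0.873). F11r, which encodes JAM-A, the relative of JAM-B on leukocytes and platelets, measured 21.0 ± 2.26 and 14.0 ± 1.95 FPKM (limma adjusted p = 0.422), lower in every KO library. Ncam1, a neural cell adhesion protein, measured 3.89 ± 2.07 and 0.694 ± 0.942 FPKM with overlapping groups (limma adjusted p = 0.385). Ncam1 is among the 4 lower genes and passed the expression filter only through the wild type libraries. The VLA-4 ligand gene Vcam1 was at most 0.972 FPKM in wild type and 1.15 FPKM in KO, and at 0 in 1 library of each group.

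**Figure D3:**
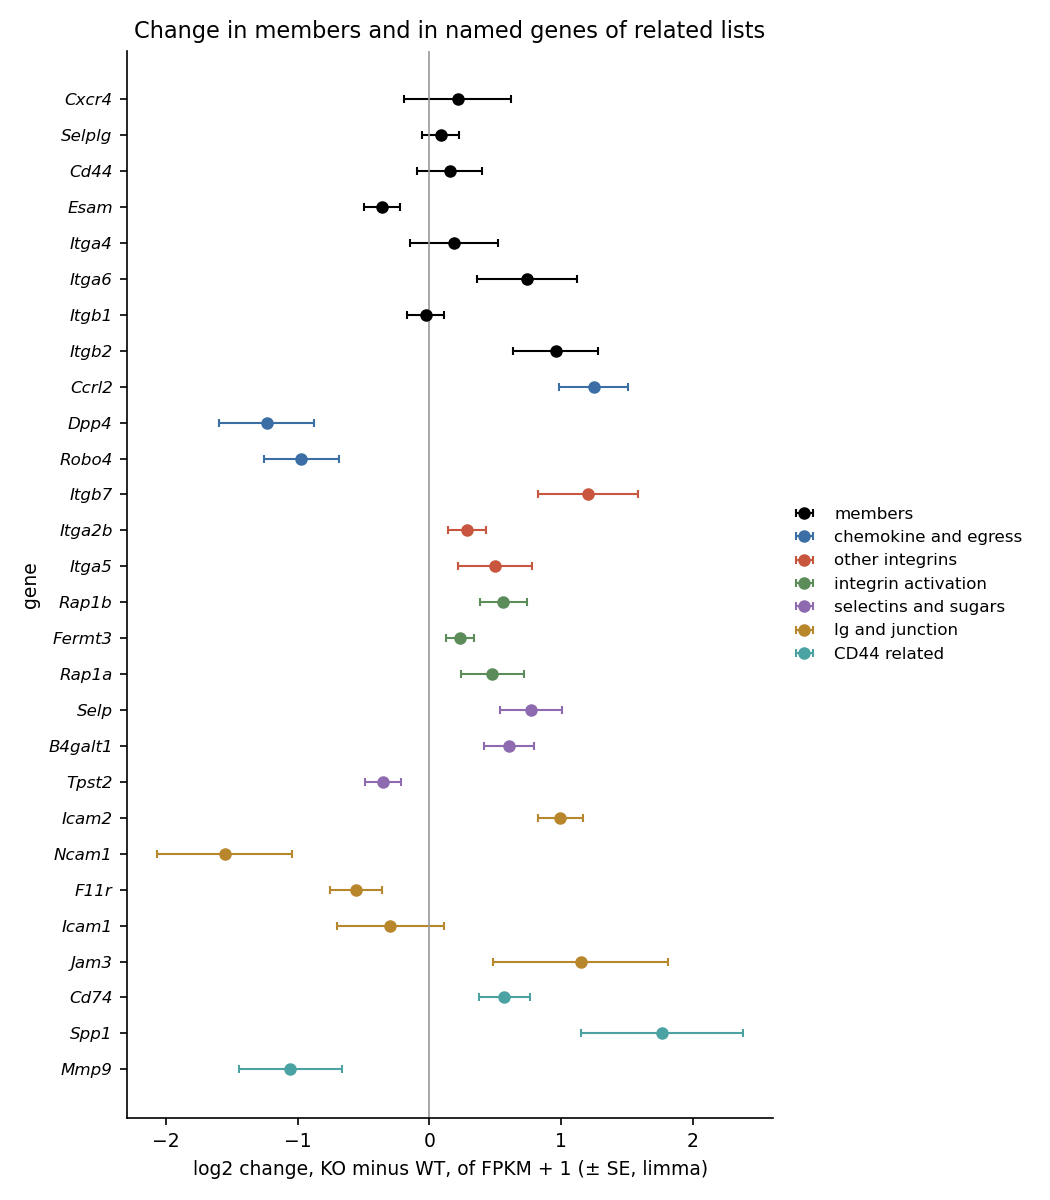
Log2 change of FPKM + 1 (KO minus wild type, ± SE from limma) of the 8 tested receptor genes (black) and of the named genes of the 6 related lists (colours). No gene shown passed an adjusted p of 0.05. Icam2 stands farthest from 0 relative to its error.

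The median coefficient of variation between wild type libraries was 24.2% for the 8 tested members and 24.0% for all tested genes, and between KO libraries 18.7% and 25.3%. The 3 genes whose levels over the 6 libraries were most like those of Itgb2 were Atp5c1-ps (Pearson r = 0.993), Ebag9 (r = 0.986) and Otud1 (r = 0.979). This is a description over 6 libraries that share the group difference, and 128 tested genes had an r above 0.9 with Itgb2.

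**Figure D4:**
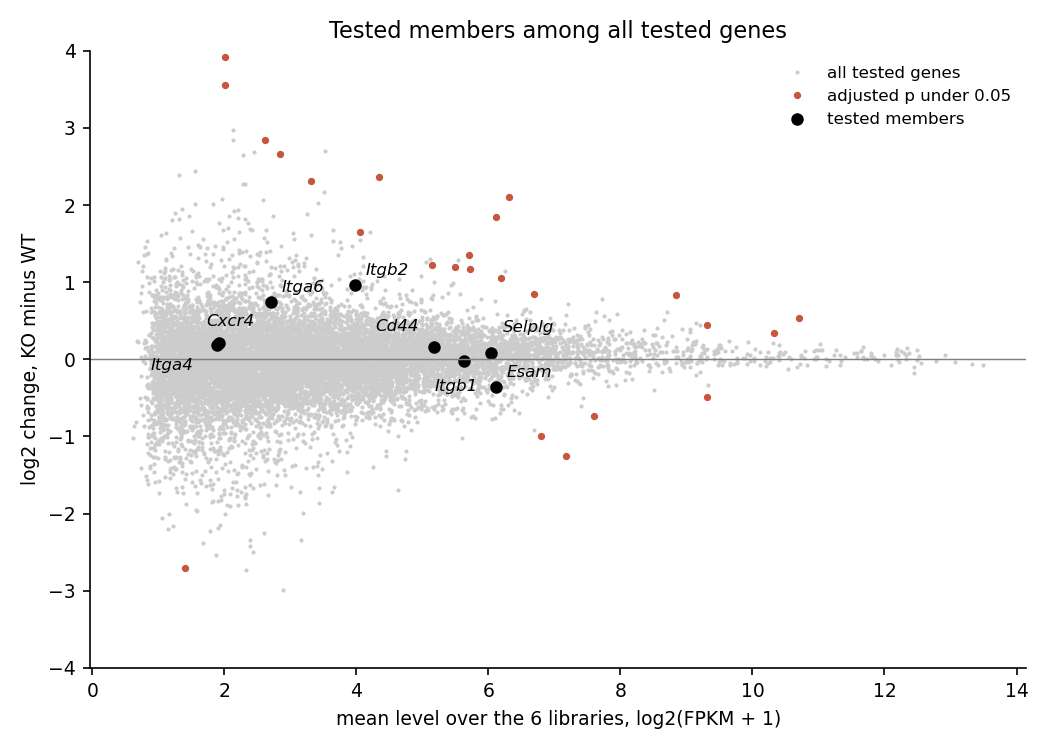
Log2 change (KO minus wild type) against mean level, log2(FPKM + 1), for all 11837 tested genes (grey), those with an adjusted p under 0.05 (red) and the 8 tested receptor genes (black, named). The axis ends at a change of 4 either way, which leaves out 3 genes. No receptor gene is among the red points.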

How the data were processed

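Per the submitters' processing notes, fastp, Bowtie2 and featureCounts were used with the build mm10; versions, strand setting and multi-mapping rule are not given there. The deposited table holds the authors' FPKM of 14986 gene symbols in 6 columns, which were matched to samples by genotype and replicate number. Per the labels' protocols, cDNA was amplified, 500 pg of it went into each library, and no molecular identifiers are named, so reads overstate independent molecules and counting errors cover counting only.

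Symbols were matched to GENCODE M21 (GRCm38, the assembly of mm10) for 97.9% of genes. Reads were recovered as FPKM times exon length over 1 step per library; 97.9% to 98.3% of values below 100 reads came out whole within 0.05. Itga6 did not come out whole at this exon length, so no reads are given for it.

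Genes averaging 1 FPKM or more were compared as log2(FPKM + 1), a scale that understates changes of low genes, in limma 3.58.1 (R 4.3.3) with a mean-variance trend, two-sided. The procedure was tested on simulated data. No pairing of libraries by replicate number was seen, and the main fit used none. The members and lists were chosen with earlier results of these data known. Named are the members, Zcchc8, the 3 genes of smallest p and any passing gene of each list, and the members' main ligands and partners; of these, Ackr3 was not analysed here and 1 gene is not reported here. Alternatives changed the pseudocount, filter, scaling, variance model, block, libraries and count model. Figures were drawn with matplotlib 3.10.9.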

Additional observations from a re-analysis of the deposited data

How the results depend on the processing

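None of the tested receptor genes passed under any of the 16 alternatives run, of which 6 left out 1 library each; Cxcr4 and Itga4 had 15, since a minimum of 5 FPKM removed them. The 27 calls over all genes went to 8 without the variance trend, 11 with the replicate block and 8 with limma-voom on recovered reads, and to 11 to 19 when 1 library was left out. The members' median log2 change of 0.17 ranged from 0.016 to 0.21 when 1 library was left out, the lowest without KO library 2. Signs turned when 1 library was left out for Cd44 (-0.12 to 0.34, negative without wild type library 1), Itgb1 (-0.077 to 0.055, positive without wild type library 2 or KO library 1), Cxcr4 (-0.19 to 0.43, negative without KO library 2), Icam1 (-0.56 to 0.18, positive without KO library 2) and Zcchc8 (-0.11 to 0.37, negative without KO library 1). The 3 alpha to beta ratios kept their sign under each alternative run on them. The cause of these shifts was not tested.

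No pairing of libraries by replicate number was seen. Deviations of same-numbered libraries correlated at 0.024, 0.007 and 0.004 over 11837 genes, and those of differently numbered ones at -0.016 to 0.009. Values near 0 do not show that the libraries were unpaired. With the replicate block the log2 change of Itgb2 was 0.96 with an adjusted p of 0.304 by limma (0.234 to 0.661 over its alternatives), and no member passed. Cxcr4 rested on 75 to 212 reads, and Itgal and Jam2 on fewer in some libraries; counting error at the lowest value was 11.5% for Cxcr4, while its coefficient of variation between KO libraries was 68.5%.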
